A study of Mus musculus with 11 samples.

Results

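The comparison was between WT-hJMJD1A replicate A and replicate B (WT A and WT B), 2 samples that carry the same label for cells, vectors, treatment and time point. Sense-strand FPKM of 1 representative transcript per gene was used, and a gene was kept where its FPKM was at least 5 in WT A, in WT B or in both. By this rule 9378 of 29955 genes were compared, of which 8805 were protein coding, 7969 were at 5 or more in both samples, 527 in WT A only and 882 in WT B only. The series has 11 samples. 6 of them follow differentiation of im-scWAT cells at day 0, day 4 and day 8 with rosiglitazone (ROS) at 0.5 μM or without it, and 5 are transduced cultures taken at day 8 with ROS, namely WT A, WT B and 1 culture each of the mutants S265A, S265D and S265D-H1120Y. im-scWAT cells were derived from the stromal cells of mouse inguinal fat, a subcutaneous white depot, and were immortalized by SV40 large T antigen. All 5 transduced cultures carried a retroviral short hairpin against mouse Jmjd1a, driven by the U6 promoter, and a second retrovirus, driven by its LTR, for V5-tagged human JMJD1A, so no culture without the hairpin or with an empty vector belongs to the comparison. Induction used indomethacin, dexamethasone, 3-isobutyl-1-methylxanthine, insulin, T3 and ROS, and maintenance used insulin, T3 and ROS. The labels place the withdrawal of ROS on the day before harvest, and the methods of the study describe this step in differing ways. Neither source says whether WT A and WT B came from 1 infection, 1 experiment or 1 sequencing run.

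Subcutaneous white fat holds preadipocytes that can become white adipocytes, which store triglyceride, or beige adipocytes, which resemble brown fat and burn fuel as heat through the mitochondrial uncoupling protein UCP1. ROS activates PPARγ, the nuclear receptor that drives fat cell formation, and long exposure to it favours the beige program in culture. JMJD1A (gene symbol Kdm3a) is a histone demethylase that removes repressive methyl marks from histone H3 and is needed for thermogenic gene expression. In the mutants a serine was changed to alanine (S265A) or to aspartate (S265D), and H1120Y adds a change in the catalytic domain.

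With 1 culture on each side there is no replicate within WT A or within WT B, so no test was possible and no p-value is given. A gene counts as higher where its FPKM + 0.1 was at least 2-fold apart. The only other pair of samples that had not been treated differently is that of day 0, before any ROS. Among the same 9378 genes, the day 0 pair was 2-fold apart in 32 (0.341%), and the SD of the log2 difference was 0.224 against 0.840 for WT A and WT B. The day 0 cells were neither transduced nor differentiated, and the genes were chosen on the WT pair. Their spread is therefore not that of 2 transduced cultures at day 8. WT A stood apart from all other transduced cultures. It was 2-fold apart in 8.64% to 16.2% of the genes at FPKM of 5 or more when set against each of the other 4, whereas the 6 pairs without WT A were 2-fold apart in 1.91% to 5.26%. Mapped bases amounted to 3.70 Gb in WT A and 3.67 Gb in WT B, within 3.10 to 5.29 Gb over the series, so the depths of the pair were close. Each gene compared rested on at least 2900 mapped bases in its higher culture, with a median of 178276.

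Kdm3a, at chr6:71538966-71582899 (mm9), had an FPKM of 20.4 in WT A and 17.9 in WT B (mean 19.2 ± 1.75, SD, n = 2). The other cultures gave 13.0 in S265A, 23.02 in S265D and 28.5 in S265D-H1120Y, and the 6 samples of the time course 15.1 to 23.2. The level of Kdm3a therefore overlapped between cells with and without the hairpin. Reads of the human cDNA and of the mouse gene were not separated here, so this value checks neither the knockdown nor the transgene.

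Of the 9378 genes, 650 were at least 2-fold higher in WT A (6.93%) and 773 at least 2-fold higher in WT B (8.24%), while the median log2 difference of WT B over WT A was -0.01. Among the 7969 genes at FPKM of 5 or more in both cultures, 424 were higher in WT A and 366 in WT B. The genes nearest to the 2-fold limit were Nhp2, at 60.7 in WT A and 30.3 in WT B, just inside, and Fads2, at 125 and 62.6, just outside. The 2 directions held different gene programs. Thermogenic, lipogenic and mitochondrial genes lay on the WT A side, and interferon, chemokine, stromal, matrix and contractile genes on the WT B side. In bulk samples such as these, fewer cells of a kind and less RNA per cell cannot be told apart.

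**Figure D1:**
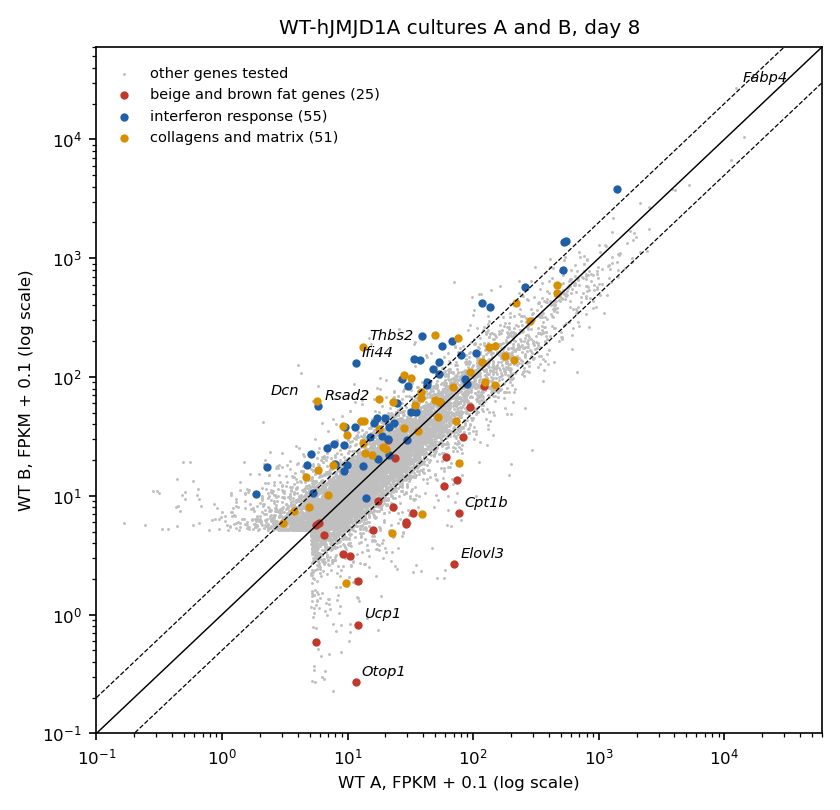
FPKM + 0.1 of the 9378 genes in WT A (horizontal) and WT B (vertical), both on log scales, with the line of equality and dashed lines at 2-fold. Beige and brown fat genes (red) lie mostly below the lower dashed line, 17 of 25 past it, and interferon response genes (blue) mostly above the upper one, 34 of 55 past it.

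Of 40 genes on a list for beige and brown fat, 25 were at FPKM of 5 or more in either culture. 17 of the 25 were at least 2-fold higher in WT A and 0 in WT B, against 6.93% and 8.24% of all genes, with a median log2 difference of -1.64 (3.13-fold higher in WT A). The filter used the pair itself, so a member could pass through WT A alone, which fixed its direction. Ucp1, Elovl3, Otop1, S100b, Ppara, Pank1, Ppargc1a and Mpzl2 passed in this way. Of the 15 members with a mean FPKM of at least 5 in the other 9 samples, 10 were higher in WT A and 0 in WT B. Ucp1, the uncoupling protein itself (chr8:85814247-85822355, mm9), had an FPKM of 12.1 in WT A and 0.724 in WT B, a 16.7-fold difference. In the same order, Cidea, a lipid droplet protein of thermogenic fat, had 33.2 and 7.03, and Elovl3, a fatty acid elongase of brown fat, had 70.4 and 2.57. The mutant cultures did not all lie with WT B, since S265D had an FPKM of 4.67 for Ucp1, 43.4 for Cidea and 32.3 for Elovl3. At day 8 without transduction, Ucp1 was at 9.90 with ROS and 0.0970 without, so WT A was close to the level with ROS and WT B lay between both. Otop1, a proton channel of brown fat, had 11.5 in WT A against 0.171 in WT B, and was at 1.13 or less in the time course and 1.19 or less in the mutants.

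Several regulators of the thermogenic program lay on the same side, Ppara and Ppargc1a among those that had passed the filter through WT A alone. Ppara, a receptor for fatty acids, had an FPKM of 12.1 in WT A against 1.83 in WT B, and Ppargc1a, the coactivator of mitochondrial biogenesis, had 9.11 and 3.14. The Ppargc1a row shares its locus with a second row, PGC-1v. Ppargc1b had 15.9 and 5.01, and Esrra, a nuclear receptor that drives respiratory genes, had 60.6 and 21.0. Genes for fuel handling in thermogenic fat followed, with Cpt1b, the carnitine transferase of muscle and brown fat, at 76.4 in WT A and 7.01 in WT B, Plin5 at 58.8 and 11.9, and Cox8b, a respiratory chain subunit, at 74.6 and 13.5. Secreted factors of the list were also higher in WT A, with Fgf21 at 29.1 against 5.93 and Nrg4 at 28.9 against 5.67. 3 members past the filter had the higher value in WT B or were level. Ebf2, a lineage factor, had 5.82 in both. Adrb3, the adrenergic receptor of fat, had 5.48 in WT A against 5.58 in WT B, and Acot2 had 21.0 and 29.4. Of the 15 members below the filter, 5 were at 0 in both cultures, Dio2 among them, and Prdm16, the regulator of brown fat identity, was at 1.25 in WT A and 0.0128 in WT B. Over all 35 members above 0 in either culture the median was -1.52.

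**Figure D2:**
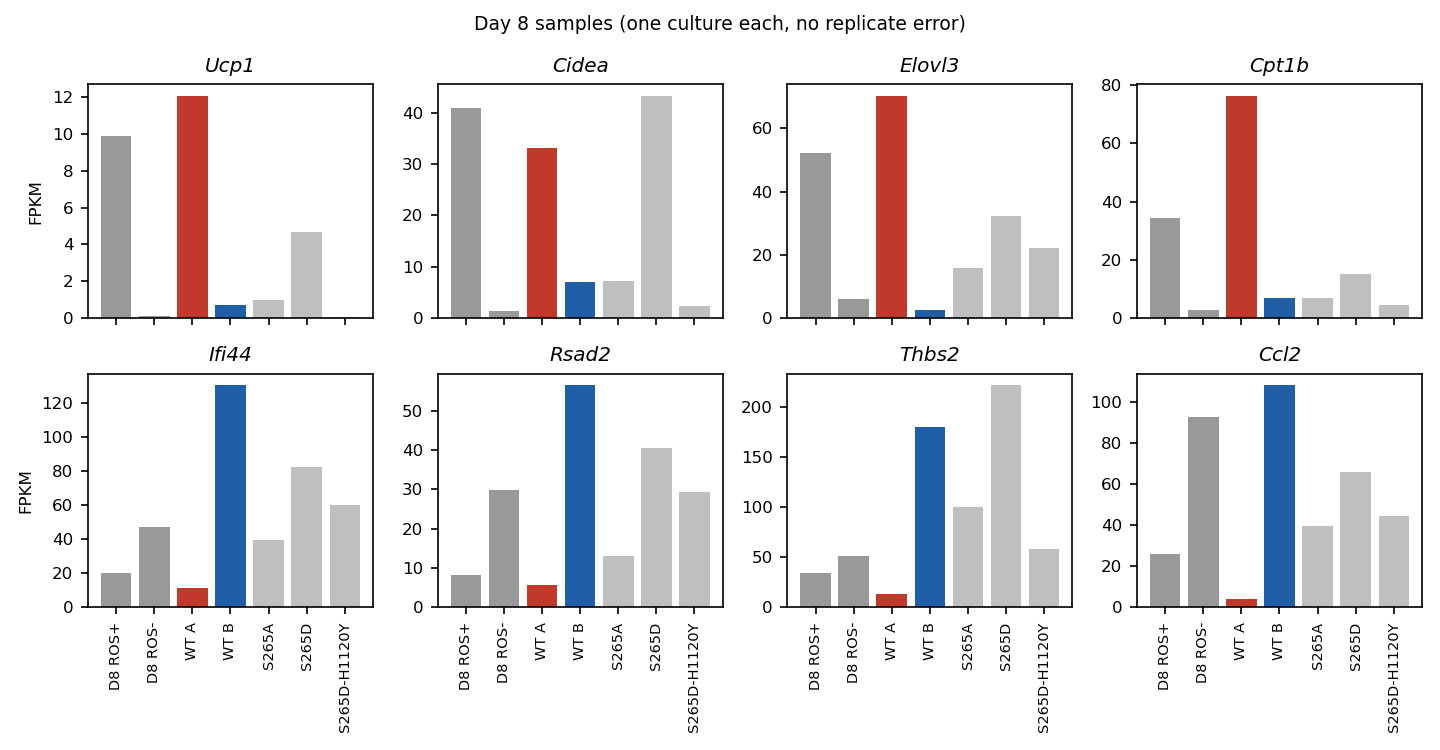
FPKM of 8 genes in the 7 samples of day 8, 1 culture per bar and therefore without error bars, each panel from 0 on its own linear scale. WT A (red) exceeds WT B (blue) for Ucp1, Cidea, Elovl3 and Cpt1b, and WT B exceeds WT A for Ifi44, Rsad2, Thbs2 and Ccl2.

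General adipocyte genes were less far apart. Of 53 genes past the filter, 10 were higher in WT A and 2 in WT B, with a median of -0.41. Pparg had an FPKM of 89.8 in WT A and 95.6 in WT B (mean 92.7 ± 4.13), and Cebpa, its partner in fat cell formation, had 150 and 83.3. Adipoq, which encodes adiponectin, had 978 and 738, and Plin1, the main lipid droplet coat, had 293 and 158. Rbp4, a retinol carrier, was the farthest toward WT A, at 192 against 14.9. Fabp4 and Lpl were the 2 members at least 2-fold higher in WT B. Fabp4, a fatty acid carrier, had 12393 in WT A against 26902 in WT B, and Lpl, the lipase that takes up fat from lipoproteins, had 406 and 849. So both cultures expressed the genes of mature fat cells, and those differed less than the thermogenic genes.

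Genes for fatty acid synthesis were higher in WT A in 10 of 23 and in WT B in 0, with a median of -0.98. Slc25a1, the mitochondrial citrate carrier, had 677 in WT A and 111 in WT B. Mlxipl, the carbohydrate-responsive factor ChREBP, had 23.2 and 4.47, and Acacb, an acetyl-CoA carboxylase, had 63.4 and 17.5. Fasn, the fatty acid synthase, was just outside 2-fold, at 379 and 192. Scd1, the desaturase and 1 of the 10 most abundant transcripts of the pair, had 4042 and 3781 and so was nearly level.

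Mitochondrial programs were displaced in the same direction by smaller amounts. For fatty acid oxidation 9 of 28 genes were higher in WT A and 0 in WT B (median -0.75), for the respiratory chain and ATP synthase 17 of 77 and 0 (median -0.60), and for the TCA cycle and branched-chain amino acid breakdown 10 of 43 and 0 (median -0.79). The respiratory chain was displaced nearly as a whole, since 71 of its 77 genes had the higher FPKM in WT A, against 4732 of all 9378. Acaa2, a thiolase of beta-oxidation, had 361 in WT A against 91.9 in WT B, and Slc25a20, the carnitine carrier, had 132 and 39.2. Atp5a1, a subunit of ATP synthase, had 842 and 266, and Uqcrc1, a subunit of complex III, had 392.2 and 130. Ogdh, a TCA cycle dehydrogenase, had 113 and 28.5. Acadm, which starts the oxidation of medium-chain fatty acids, was nearly level at 373 and 318, and Pdk4, a brake on pyruvate oxidation that PPAR ligands turn on, was level at 64.6 and 68.0. Of 36 peroxisomal genes, 4 were higher in WT A and 1 in WT B (median -0.49), with Ehhadh at 39.0 and 6.84 and Decr2, the exception, at 8.49 and 18.6.

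Among 22 genes of glucose uptake and glycolysis 3 were higher in WT A and 0 in WT B (median -0.37). Ldhb, a subunit of lactate dehydrogenase, had 80.2 in WT A and 6.17 in WT B, while Slc2a1, the basal glucose carrier, had 29.2 and 41.8. For cholesterol synthesis the counts were 6 and 0 of 24 (median -0.43), with Cyp51 at 74.6 and 27.3. The cell cycle list gave 10 and 1 of 63 (median -0.47). Cdkn1c, an inhibitor of the cell cycle, led it at 59.4 in WT A against 2.27 in WT B, and replication genes followed, with Ccne1 at 34.0 and 9.19 and Rrm2 at 55.0 and 17.0. Mki67, the general marker of cycling cells, was nearly level at 14.3 and 16.8, and Top2a had 30.4 and 48.7. Cdkn2a was the 1 member past 2-fold toward WT B, at 90.1 and 249.998.

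**Figure D3:**
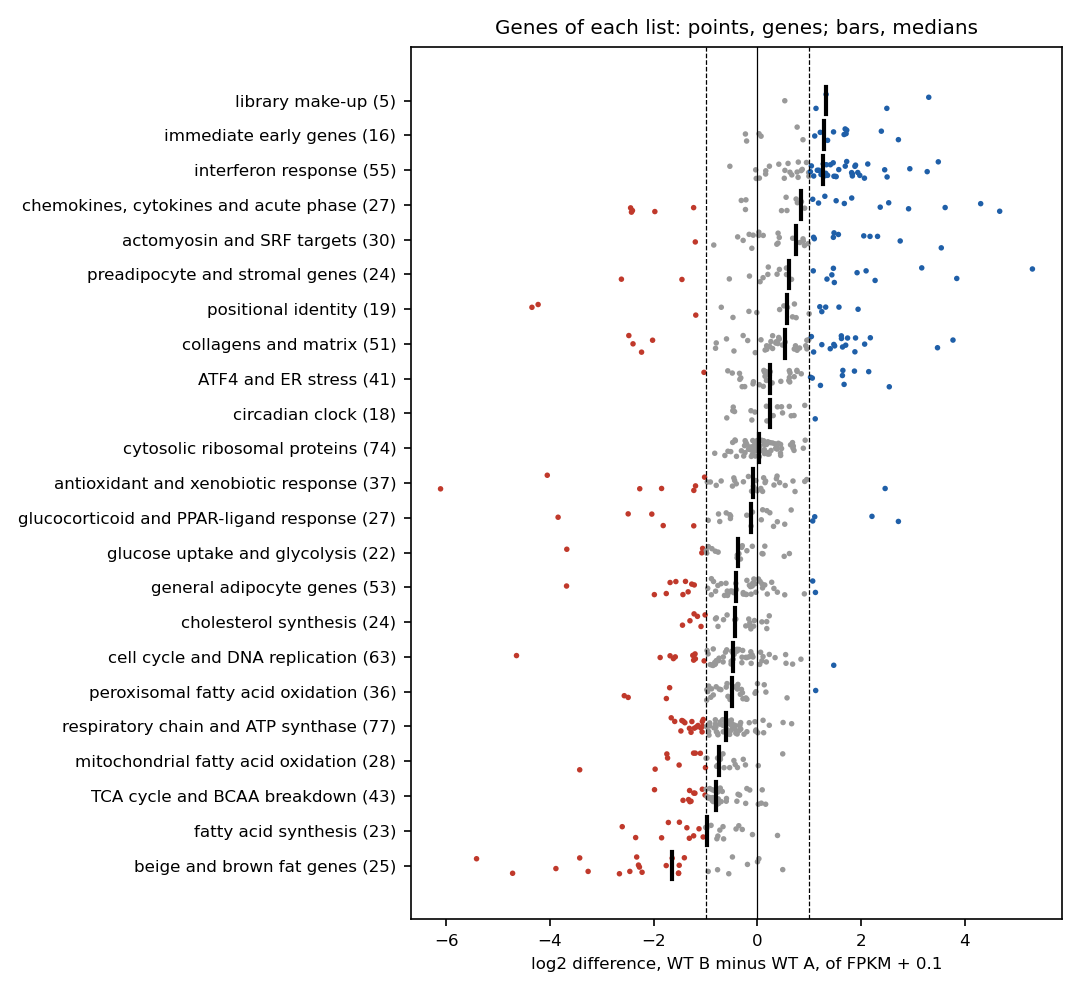
Log2 difference, WT B minus WT A, of every gene past the filter in the 23 lists with at least 5 such genes, with the number of genes in brackets. Each point is 1 gene, coloured where it is 2-fold higher in WT B (blue) or WT A (red), and black bars are list medians, which run from 1.32 for library make-up to -1.64 for beige and brown fat genes.

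Interferon response genes lay almost wholly on the WT B side. Interferons are antiviral signals that turn on a shared set of genes through transcription factors bound to the interferon-stimulated response element in promoters. Of 55 genes past the filter, 34 were higher in WT B and 0 in WT A, and 52 had the higher value in WT B, with a median of 1.27 (2.41-fold higher in WT B). Of the 53 with a mean FPKM of at least 5 in the other 9 samples, 32 were higher in WT B and 0 in WT A. Ifi44 had an FPKM of 11.5 in WT A and 130 in WT B, Rsad2, which encodes viperin, had 5.76 and 56.5, and Oas3, a sensor of double-stranded RNA, had 2.19 and 17.4. Ifit3 had 38.8 and 220, and Isg15, a ubiquitin-like modifier, had 136 and 390. B2m, the common chain of MHC class I, had 1387 and 3819, and H2-K1 and H2-D1, whose sequences are alike enough to share reads, had 552 in WT A against 1383 in WT B and 532 against 1359. Irf7, a transcription factor of the response, had 68.2 and 202. At day 8 without transduction the list was higher without ROS, since its median relative to day 0 was 0.97 with ROS and 2.51 without. WT A, at 0.97, was level with the sample with ROS, and WT B was at 1.94. S265A was at 0.95, S265D at 1.88 and S265D-H1120Y at 1.14, so S265A and S265D-H1120Y were nearer to WT A and S265D was nearer to WT B.

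The promoters of 3 of these genes are shown because they are the members with the largest excess in WT B that hold the response element between 250 bases before and 50 bases after the start. Windows came from RefSeq (GRCm38.p6), and the letters searched were GAAANNGAAA on both strands. Of the 34 interferon genes higher in WT B, 29 had a window and 15 of these held the letters (51.7%). Of the 21 under 2-fold, 14 had a window and 6 of these held them (42.9%), so the letters were present in members with and without a 2-fold difference. Among all 27025 genes with a window the share was 3.99%, or 3.44% of all 32851 windows. Windows were found for 43 of the 55 genes of the list, and those without one are not counted in these shares. Capitals mark the matches, which lie on chr12:26456403-26456702, minus strand, for Rsad2, on chr5:120777610-120777909, minus strand, for Oas3, and on chr19:34583279-34583578, plus strand, for Ifit3, the last with 2 matches. The sequences read in the direction of the gene, and a match is a description of letters and not evidence of binding.
Rsad2: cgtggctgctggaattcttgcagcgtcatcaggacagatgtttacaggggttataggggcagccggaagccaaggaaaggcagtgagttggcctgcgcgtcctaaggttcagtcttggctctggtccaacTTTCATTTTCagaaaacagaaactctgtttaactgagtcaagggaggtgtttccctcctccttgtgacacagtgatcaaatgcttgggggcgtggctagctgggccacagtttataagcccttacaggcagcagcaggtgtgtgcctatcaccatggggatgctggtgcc
Oas3: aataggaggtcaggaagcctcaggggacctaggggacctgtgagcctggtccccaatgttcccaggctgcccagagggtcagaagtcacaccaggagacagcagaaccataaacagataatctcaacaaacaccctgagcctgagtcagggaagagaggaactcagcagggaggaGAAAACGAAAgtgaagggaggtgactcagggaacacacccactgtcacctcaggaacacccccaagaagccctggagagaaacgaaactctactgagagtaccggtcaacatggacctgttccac
Ifit3: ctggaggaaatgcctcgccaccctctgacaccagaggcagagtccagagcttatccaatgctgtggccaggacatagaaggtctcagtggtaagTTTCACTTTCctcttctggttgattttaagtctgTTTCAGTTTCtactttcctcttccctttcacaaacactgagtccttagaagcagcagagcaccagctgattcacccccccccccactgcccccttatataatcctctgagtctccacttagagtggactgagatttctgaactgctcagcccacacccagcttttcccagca

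Chemokines and acute phase genes went in both directions, with 12 of 27 higher in WT B and 5 in WT A (median 0.85). Ccl2, which attracts monocytes, had 4.16 in WT A against 109 in WT B, with day 0 values of 351 and 328, and 25.9 at day 8 with ROS. Its neighbour Ccl7 had 2.01 and 41.7, and Ccl5, which interferon also turns on, had 15.3 and 189. Hp, which encodes haptoglobin, lay on the other side at 31.2 and 5.79, as did Steap4, a metalloreductase, at 80.9 and 14.9, and Ptges, a prostaglandin synthase, at 68.5 and 12.5. Il1rn, the receptor antagonist, had 2.92 and 17.4.

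Genes of connective tissue were higher in WT B on balance. Of 51 collagen and matrix genes, 17 were higher in WT B and 4 in WT A (median 0.54). Thbs2, a matrix protein of fibroblasts, had 13.1 in WT A and 180 in WT B, Dcn, the proteoglycan decorin, had 5.57 and 62.8, and Fn1, fibronectin, had 50.04 and 227. The main fibrillar collagens were close, with Col1a1 at 150 and 183 and Col3a1 at 118 and 133. Other members were higher in WT A, with Col15a1 at 76.6 and 18.8 and Col12a1 at 39.1 and 6.92. At day 8 without transduction Col1a1 was at 47.1 with ROS and 170 without, so both WT cultures were nearer to the sample without ROS for this gene. The list median relative to day 0 was -1.90 with ROS, -0.67 without, -1.05 in WT A and -0.70 in WT B.

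Among 24 preadipocyte and stromal genes 11 were higher in WT B and 2 in WT A (median 0.61). Pdgfra, the receptor that marks fat progenitors, had 9.33 in WT A and 35.6 in WT B, Ly6c1 had 14.6 and 211, and S100a6 had 69.8 and 628. Grem1, an antagonist of bone morphogenetic proteins (chr2:113588832-113598805, mm9), had 0.392 and 19.3, and lay between 18.6 and 25.8 before differentiation but at 0.297 at day 8 with ROS. Gas6 was an exception at 76.6 and 27.8, and Igfbp3 another at 49.0 and 7.87. Of 30 contractile genes and targets of the factor SRF, 10 were higher in WT B and 1 in WT A (median 0.75). Cyr61 had 5.24 and 62.3, Ctgf had 0.890 and 6.58, and Tpm2, a tropomyosin, had 8.02 and 40.3. Acta2, the smooth muscle actin that marks myofibroblasts, did not follow, at 6.27 in WT A against 4.79 in WT B, with day 0 values of 131 and 140.

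**Figure D4:**
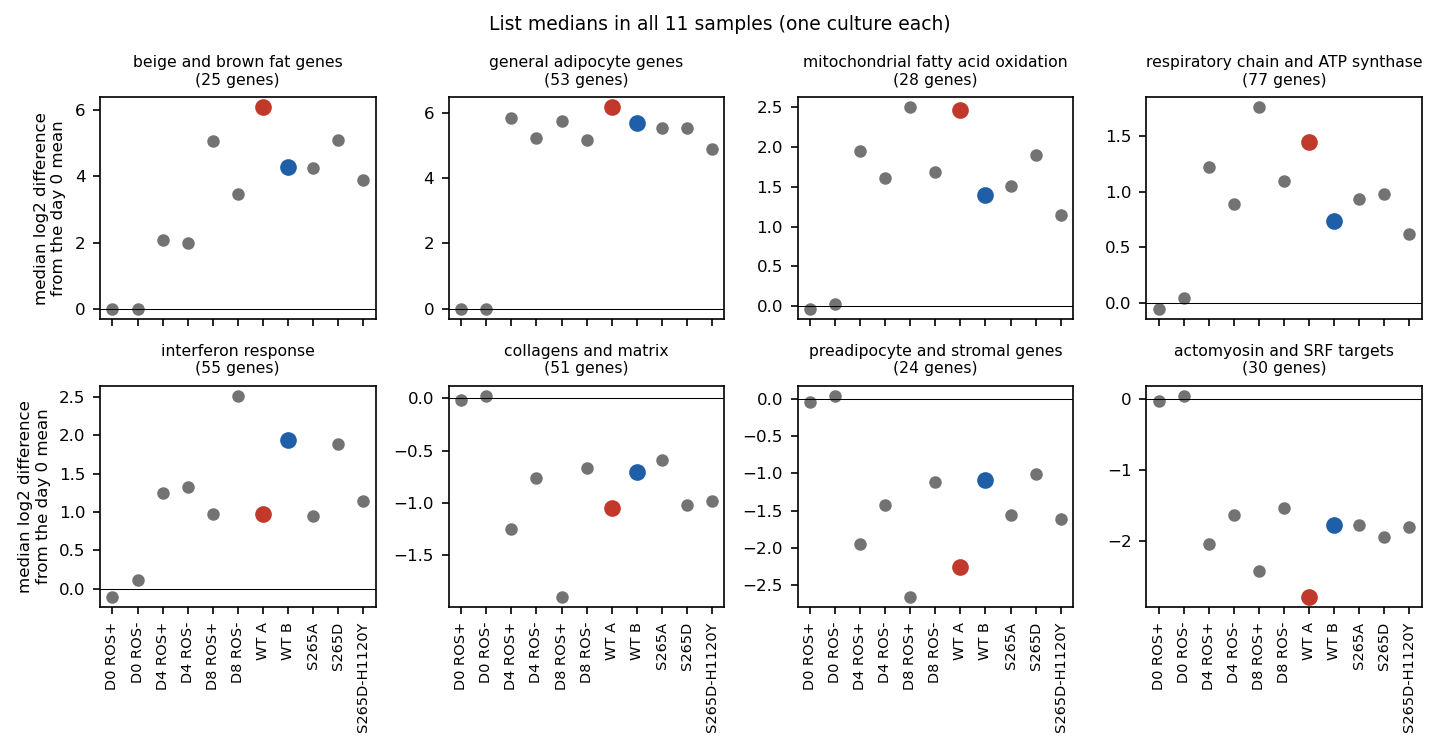
Median log2 difference from the mean of the day 0 samples for 8 lists in all 11 samples, 1 culture per point, with WT A in red and WT B in blue. WT A lies at 6.09 for beige and brown fat genes, above every other sample, and WT B at 4.29. Some of these genes passed the filter through WT A alone, so the top place of WT A is partly built in. For interferon genes WT A lies at 0.97 with the day 8 sample with ROS and WT B at 1.94.

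Immediate early genes were mostly on the WT B side, and stress genes of the ATF4 list were so by a smaller amount. Antioxidant genes went both ways, with more past 2-fold toward WT A. Of 16 immediate early genes, which serum and handling turn on within minutes, 10 were higher in WT B and 0 in WT A (median 1.28). Klf4 had 1.52 in WT A and 10.6 in WT B, Btg2 had 2.76 and 14.9, and Jun had 6.004 and 20.04, while Myc was level at 21.4 and 22.5. Relative to day 0 the list median was -1.66 in WT A, the lowest of all 11 samples, -0.43 in WT B and -0.17 at day 8 with ROS. Among 41 genes of the ATF4 and endoplasmic reticulum stress response 9 were higher in WT B and 1 in WT A (median 0.25), with Ddit3, the factor CHOP, at 112 and 497, and Chac1 at 7.51 and 44.3. The Ddit3 row overlaps that of Mars on the genome. Of 37 antioxidant and xenobiotic genes, 7 were higher in WT A and 1 in WT B (median -0.08), with Gsta3, a glutathione transferase, at 23.4 and 0.240, and Sod3, the extracellular superoxide dismutase, at 38.4 and 2.22. The gene family of Gsta3 holds close copies, among which reads may be shared.

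Other lists differed little or in both directions. Of 27 genes that answer to glucocorticoid or PPAR ligands, 5 were higher in WT A and 4 in WT B (median -0.12). Fabp3 was on the WT A side, at 33.0 and 2.20, as was Hsd11b1, which activates glucocorticoid, at 200 and 48.6, and Errfi1 on the WT B side, at 12.8 and 59.6. The 18 clock genes had a median of 0.24. The 74 cytosolic ribosomal protein genes had a median of 0.04, and 0 were 2-fold apart in either direction. Of 19 genes of positional identity, 3 were higher in WT A and 5 in WT B (median 0.58). Hoxd8 had 5.403 in WT A against 0.170 in WT B, and Pitx1, a hindlimb factor, had 5.08 and 0.176, whereas Hoxc6 had 11.7 and 27.0. The other 4 on the WT B side were genes of the Y chromosome.

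The 15 genes farthest apart toward WT A had log2 differences of -4.19 to -6.11, and the 15 farthest toward WT B had 4.24 to 5.30. Their lower culture was at an FPKM of 2.57 or less toward WT A and 4.16 or less toward WT B. All of them therefore passed the filter through the higher culture alone, which fixed their direction. Toward WT A, 13 of 15 were below an FPKM of 1 in both day 0 samples, and 10 of 15 were at least 4-fold higher at day 8 with ROS than at day 0, against 8.56% of all genes compared. Gsta3 and Cyp2e1, a cytochrome of xenobiotic metabolism, led this side. With WT A first, WT B next and the day 8 sample with ROS last, Cyp2e1 was at 19.9, 0.233 and 18.2, and Ppp1r1a, a phosphatase inhibitor, at 51.8, 1.93 and 11.8. Plbd1 had 58.9, 1.95 and 9.40, and Gys2, a glycogen synthase, had 8.78, 0.388 and 3.99. Fgfr2, a growth factor receptor, had 7.57 in WT A and 0.126 in WT B. Arhgap36, Stag3, Chn1, Hoxd8 and Pitx1 were of another kind, since they were at 1 or less at day 4 and day 8 of the time course, at 5.08 to 6.50 in WT A, at 0.170 to 0.234 in WT B and at 1.57 or less in the mutants. Lrp3, a receptor of the lipoprotein receptor family, had 17.5 and 0.638.

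Toward WT B the 15 genes had changed in both directions in the time course. At day 8 with ROS, 5 of 15 were at least 4-fold higher than at day 0, against 8.56% of all genes compared. The other direction held 8 of 15, at least 4-fold lower, against 4.13%. Besides Grem1, Ccl2 and Ccl7 they held Spp1, which encodes osteopontin, at 3.92 and 127, with day 0 values of 174 and 197, and Sprr1a, at 0.203 and 10.8, with day 0 values of 33.4 and 37.7. Acsbg1, an acyl-CoA synthetase, had 0.145 and 5.63, and Aqp1, a water channel, had 0.330 and 8.01. A4galt, a glycosyltransferase, had 0.409 and 10.6, with day 0 values of 14.99 and 17.2. Serpinb9e, Serpinb9f, Bves, Popdc3 and 1110059M19Rik were instead at 0.333 or less in both day 0 samples. Serpinb9e and Serpinb9f, close copies among which reads may be shared, had 0.181 in WT A against 10.95 in WT B and 0.492 against 13.1, and both were at 0.85 or less in all 6 samples of the time course. Bves and Popdc3, neighbours of 1 gene family, had 0.0669 in WT A against 5.85 in WT B and 0.377 against 10.04. 1110059M19Rik had 0.217 and 10.5. Khdrbs3, an RNA-binding protein, had 0.335 and 13.8, against 17.4 at day 8 with ROS, and its overlapping row etoile, which covers the same reads in part, had 0.460 and 19.1. Both rows were at 2.10 to 3.13 at day 0. In 13 of the 15 genes toward WT A and in 12 of the 15 toward WT B, all 3 mutant cultures lay between the WT cultures. These genes were picked for the largest differences of the pair, so other cultures would mostly fall between. No conclusion about the mutants is drawn from these counts.

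Set beside the time course, genes that differentiation or ROS had lowered were often higher in WT B, and genes they had raised more often in WT A. Over all genes compared, 6.93% were higher in WT A and 8.24% in WT B. At day 8 with ROS, 803 genes were at least 4-fold higher than at day 0, which is 8.56% of those compared. Of the 803, 253 were higher in WT A (31.5%) and 86 in WT B (10.7%), with a median of -0.61. Both shares exceeded those over all genes. Of 387 genes at least 4-fold lower (4.13%), 15 were higher in WT A (3.88%) and 192 in WT B (49.6%), with a median of 0.99. The 8188 genes between these limits had a median of 0.00. By the ROS effect at day 8, 234 genes were at least 2-fold higher with ROS (2.5%). Of the 234, 74 were higher in WT A (31.6%) and 27 in WT B (11.5%), with a median of -0.46. Another 540 genes were at least 2-fold lower with ROS (5.76%). Of the 540, 44 were higher in WT A (8.15%) and 239 in WT B (44.3%), with a median of 0.88. Genes that were lower both at day 8 and with ROS numbered 226 and had the largest displacement. Of the 226, 121 were higher in WT B (53.5%) and 6 in WT A (2.65%), with a median of 1.08. The 348 genes at least 2-fold higher at day 8 than at day 4 with ROS were mixed. Of the 348, 100 were higher in WT A (28.7%) and 69 in WT B (19.8%), with a median of -0.22. The filter used the pair itself, so 882 genes entered through WT B alone and 527 through WT A alone, which fixed their direction. Part of the class counts is therefore built in. Over 13 other settings the median of genes raised by day 8 ran from -0.62 to -0.54, and of those lowered from 0.69 to 1.02. Across the 9378 genes, the log2 difference of WT B over WT A had a Pearson r of 0.36 with that of day 0 over day 8 with ROS, and 0.30 with that of no ROS over ROS at day 8. These values are across genes, which are not independent replicates, and both share the sample of day 8 with ROS.

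Against the whole profile of the time course, WT A was nearer than WT B to the day 8 sample with ROS, with 12.8% and 17.9% of genes 2-fold apart, and WT B was nearer than WT A to that without ROS, with 15.6% and 18.2%. Neither culture was as near to either of them as those samples were to each other, at 8.53%. The nearest sample to WT B was S265D, at 1.91%, and the nearest to WT A was S265A, at 8.64%.

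Genes also differed between the cultures by chromosome, a pattern that was chosen after its values were seen. The median log2 difference of WT B over WT A was 0.62 on chromosome 3 (467 genes), 0.38 on chromosome 14, 0.36 on chromosome 4 and 0.26 on chromosome 17. It was -0.48 on chromosome 18 (249 genes), -0.35 on chromosome 16, -0.30 on chromosome 5, -0.29 on chromosome 10 and -0.26 on chromosome 9. In consecutive windows of 20 genes, the median was above 0 in all 23 windows of chromosome 3 (0.31 to 0.89), all 29 of chromosome 4 and all 15 of chromosome 14. It was below 0 in all 15 windows of chromosome 16 and all 12 of chromosome 18. On chromosome 3, 110 genes were higher in WT B and 7 in WT A.

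Relative to the mean of the time course, each sample was centred on its own median, and the Y chromosome was left out. WT A was displaced by more than 0.2 on 9 of the 20 other chromosomes, from -0.42 on chromosome 3 to 0.31 on chromosome 18. WT B, S265A and all 6 samples of the time course passed 0.2 on 0 chromosomes, S265D on 3 and S265D-H1120Y on 1. The 6 samples form the mean themselves, so their nearness to it is partly built in, unlike that of the transduced cultures. The 5 Y chromosome rows compared, of which Smcy and Kdm5d are overlapping rows of 1 gene, were all higher in WT B. Eif2s3y was at 19.01 in WT A against 47.5 in WT B, and Ddx3y at 7.54 and 18.0. Uty, at 1.78 and 5.50, and Kdm5d, at 1.48 and 5.95, passed the filter through WT B alone, which fixed their direction. In the time course Eif2s3y was at 13.3 to 24.5 and Ddx3y at 2.90 to 6.45, and in the mutants Eif2s3y was at 36.5 to 41.4. So WT B lay above the time course for both of these Y-linked genes, and WT A for Ddx3y only. Subtracting the chromosome's median from each gene left 555 genes higher in WT A against 638 in WT B, and left the list medians at -1.60 for beige and brown fat, 1.06 for interferon, -0.65 for the respiratory chain and 0.64 for collagens and matrix. Fabp4, S100a6, Cyr61 and Ifi44 lie on chromosome 3, and their log2 differences of 1.12, 3.17, 3.54 and 3.49 exceeded its median. With the median of the chromosome subtracted, Fabp4 was at 0.50 and no longer 2-fold apart, whereas S100a6, Cyr61 and Ifi44 were at 2.55, 2.92 and 2.87. What set the chromosomes apart was not tested.

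**Figure D5:**
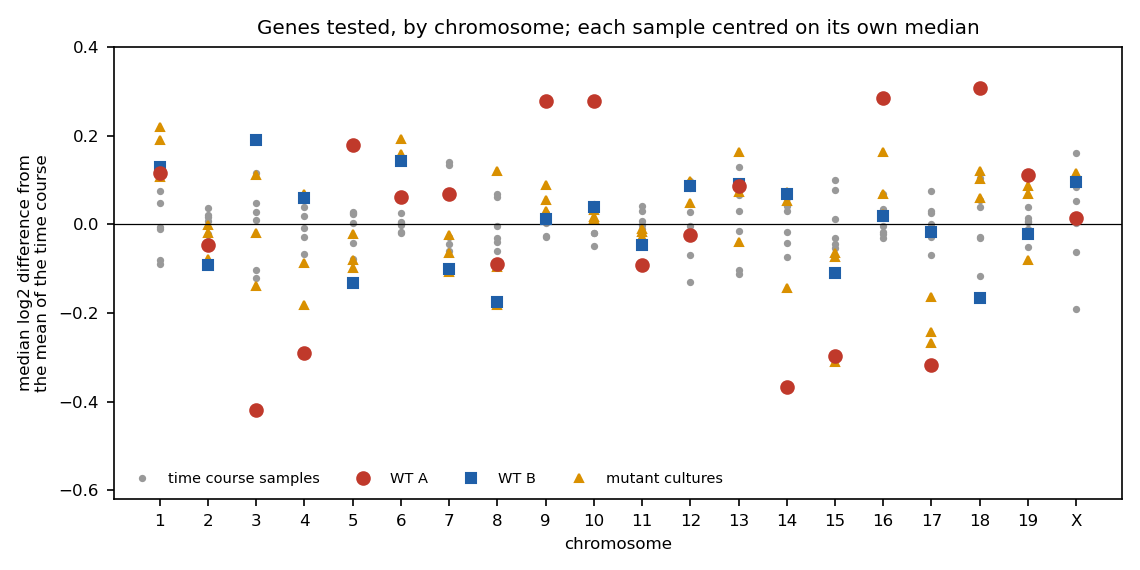
Median log2 difference from the mean of the 6 time course samples over the genes on each chromosome (horizontal axis), each sample centred on its own median over all genes compared, with 1 culture per point. WT A (red) reaches -0.42 on chromosome 3 and 0.31 on chromosome 18, whereas WT B (blue squares) stays within 0.2 of zero on all 20 chromosomes shown. The Y chromosome is left out.

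Most markers of other cell types were low in both cultures. Of 50 markers of macrophages, endothelium, skeletal muscle, epithelium, bone and cartilage, and nerve, 41 were below an FPKM of 1 in both and 17 were at 0 in both. Those at 0 included Emr1 and Ptprc of macrophages, Cdh5 of endothelium, Myod1 of muscle, Krt5 of epithelium and Sox10 of Schwann cells. The 5 past the filter all had the higher value in WT B. Cd68, Acta1 and Ngfr passed it through WT B alone, which fixed their direction. Alpl and Krt19 passed it in both cultures and were less than 2-fold apart. Alpl, an alkaline phosphatase on the bone list that other cells also express, had 45.2 and 80.0, and Krt19, a keratin, had 11.01 and 19.9. Cd68, a lysosomal protein of macrophages that other cells also express, had 4.997 and 16.6, Acta1, the skeletal actin, had 1.40 and 19.3, and Ngfr had 2.56 and 10.1. The summed FPKM of the macrophage list was 6.40 in WT A against 17.6 in WT B, and 1.91 to 8.41 in the time course. That of bone and cartilage was 46.3 and 82.8, against 8.61 to 35.9 in the time course, and that of skeletal muscle was 2.00 and 19.9, against 0.892 to 2.03. Epithelium summed to 11.4 and 20.8, within the 0.0931 to 62.5 of the time course, nerve to 3.41 and 11.1, against 3.42 to 33.2, and endothelium to 4.37 and 4.83, within 3.36 to 7.38.

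Long nuclear RNAs moved with the pair. Malat1 had 25.8 in WT A against 256 in WT B, and Neat1 had 34.6 and 196. Malat1 was at 42.3 in S265A, 147 in S265D and 154 in S265D-H1120Y, and at 21.1 to 84.7 in the time course. All 5 rows past the filter on a list of library make-up, histone transcripts included, had the higher value in WT B, and 4 of them were 2-fold higher. The share of antisense signal was 2.07% in WT A and 1.92% in WT B. By transcript length, the log2 difference had a median of -0.06 in the 1880 genes with the shortest exon length and 0.08 in the 1876 with the longest. By mean FPKM of the pair, the 1876 lowest genes had a median of 0.19, with 16.3% higher in WT B and 8.37% in WT A, and the 1876 highest had a median of -0.13, with 6.18% and 9.12%. The part of these features in the differences above was not tested. The 10 transcripts with the highest mean FPKM were Fabp4, the mitochondrial DQ539915 and Cox2, Gapdh, Scd1, Eef1a1, Aldoa, B2m, Lgals1 and Fabp5, of which Fabp4 and B2m were 2-fold apart.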

How the data were processed

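RNA was sequenced from TruSeq libraries of 11 samples, each taken as 1 culture. The authors mapped reads (BWA, mouse build mm9 with UCSC gene models) and deposited strand-specific FPKM for 55419 transcripts per strand, beside log10 and log2 of the FPKM and, as a signal of coverage, mapped bases. Read counts were not used, since mapped bases are not counts. Groups came from the sample labels. Sense rows marked representative stood for 29955 genes. A gene was compared at FPKM of at least 5 in WT A or WT B, as log2(FPKM + 0.1), a scale that understates differences of low genes, and called at 2-fold. The smaller the FPKM, the fewer mapped bases (3.70 and 3.67 Gb in all) support it. 1029 list entries in 29 lists were matched by symbol (7 through an older name, 7 unmatched).

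Named genes were the 15 at each end, 3 at each end of each list, 13 defining genes and the 10 most abundant. Further members of these lists, Y-linked genes and the genes nearest the limits were chosen after their values were seen. Members and lists were chosen with earlier results of these data known. Starts were written 1-based, which met the annotated starts of the same build in 4450 of 8494 genes, against 397 as deposited. Python 3.11.15, numpy 2.4.6, pandas 2.3.3 and matplotlib 3.10.9 were used.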

Additional observations from a re-analysis of the deposited data

How the results depend on the processing

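No paired analysis was possible because letters mark replicates in the WT group only, and leaving out WT A or WT B leaves no comparison. The counts of genes higher in WT A and of genes higher in WT B were 987 and 1404 with a minimum FPKM of 1, 370 and 283 with a minimum of 20, 1459 and 2156 with none, 1702 and 1752 at 1.5-fold, and 145 and 167 at 4-fold. So the direction of the larger count depended on the minimum. Settings chosen after seeing the data required 5 in both cultures (424 and 366), used the mean of the other 9 samples, subtracted chromosome medians, or dropped mitochondrial, histone, Malat1 and Neat1 rows. The day 0 pair, 32 genes apart, gave 5 with a pseudocount of 1, 126 with none, 107, 8 and 278 with minimums of 1, 20 and none, 278 at 1.5-fold, 1 at 4-fold, 20 on the mean of the other 9 samples, 19 with 5 in both cultures and 20 with 5 in either day 0 sample. The gap between the lowest share apart for pairs with WT A and the highest for pairs without it was 3.37 percentage points, 8.48 at 1.5-fold and 0.639 at 4-fold. The preadipocyte and stromal median became 1.46 with a minimum of 20. Of 17 lists with a median past 0.4 in size, 220 of 221 alternative values kept their sign, the exception being positional identity, at 0.00 once chromosome medians were subtracted. The beige and brown fat median ran from -1.87 to -1.49. Once chromosome medians were subtracted, Eif2s3y changed sign (-0.26) among named genes past 2-fold, and under 2-fold so did Scd1 (0.05), Ebf2 (-0.38), Ndufc1 (-0.39), Dbt (-0.46), Slc16a1 (-0.01), Fdps (-0.39), Fdft1 (-0.20), Pmvk (-0.44) and Parp9 (0.33), while DQ539915 and Uty came to 0. Ebf2 also did so with antisense added (-0.01). Depth was close in the pair, so that 100 mapped bases on 2 kb of exon gave an FPKM of 0.0135 in WT A against 0.0136 in WT B. What limits the comparison is 1 culture per side.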
